A study of Mus musculus with 10 samples.

Results

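Polyamines are small, positively charged molecules that bind nucleic acids and are made in quantity by dividing cells. Ornithine decarboxylase, the product of Odc1, converts ornithine into putrescine. S-adenosylmethionine decarboxylase, the product of Amd1, supplies the aminopropyl groups that spermidine synthase (Srm) and spermine synthase (Sms) add to make spermidine and spermine. Spermidine/spermine acetyltransferase (Sat1) and spermine oxidase (Smox) run the pathway backwards. Antizymes, here Oaz1 and Oaz2, bind ornithine decarboxylase and send it to the proteasome, and the antizyme inhibitor Azin1 keeps the antizymes away from it. Odc1 is a textbook target of the transcription factor Myc. The 9 genes Odc1, Srm, Sms, Amd1, Sat1, Smox, Oaz1, Oaz2 and Azin1 are described here, of 27191 genes on the array. They were chosen by name, with earlier results of these data known: all 20 non-control probes to which the array's design gives 1 of these gene names.

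Total RNA from mouse cells was labelled with Cy3 and hybridised to 1-colour Agilent arrays, 10 arrays in 5 groups of 2. Of these, 3 groups were B cell acute lymphoblastic leukemias (B-ALL) taken from a lymph node of mice 686, 713 and 760, which carried 1 intact copy each of Ebf1 and Pax5 (Ebf1+/- Pax5+/-, dHet). Both genes encode transcription factors on which B cell identity depends. Cells of the dHet pro-B group shared the heterozygous Ebf1 and Pax5 alleles and also lacked Rag2 (Ebf1+/- Pax5+/- Rag2-/-), so its cells cannot rearrange antigen receptor genes. These cells were grown from c-Kit positive fetal liver on OP9 stroma with stem cell factor, interleukin 7 and Flt3 ligand. For the wt pro-B group, Fraction BC was sorted from bone marrow of Ebf1+/+ Pax5+/+ control mice, with no culture. The leukemias therefore differ from the dHet cells in Rag2, tissue, age of origin and culture, and from the wt cells in genotype and tissue. Ages are not in the labels used here. Whether the arrays of a group came from separate animals or cultures is not stated either, so p-values may measure technical spread. In the dHet group 1 array had high Xist and the other high Ddx3y, so its arrays held RNA of different animals. Leukemia 760 had high Xist, while 686, 713 and both wt arrays had high Ddx3y, so sex differed between groups too. Sms and Sat1 lie on the X chromosome, and the part of sex in their levels was not tested.

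A level is the log2 signal of a probe minus the array's 75th percentile, so that 0 is the brightness of that percentile, and a change is a difference of mean levels. Levels of different probes are not compared, since probes differ in brightness. A probe was tested when it was well above background on both arrays of at least 1 group, as 17 of the 20 probes were, and all 9 genes kept a tested probe. The brightest tested probe stands for a gene and is called its main probe. Changes were tested with limma over all 22301 such probes, and a change was called at an adjusted p under 0.05. Against pro-B cells the leukemic mouse (n = 3) was the replicate. Fewer cells that express a gene and less RNA per cell cannot be told apart in these bulk samples.

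The arrays were of uneven quality, and 1 slide carried a signature of its own. Replicates correlated at r between 0.945 and 0.993, and 35.7% of probes were well above background on replicate 1 of leukemia 686 against 42.1% to 52.4% on the others. Replicate 1 of each leukemia shared slide 1, replicate 2 shared slide 2 and the 4 pro-B arrays shared slide 3. Slide and cell kind thus cannot be told apart between leukemias and pro-B cells. Slide 1 was scanned on the first of 2 scan days and slides 2 and 3 on the second. The signature of slide 1 thus cannot be told apart from that of its scan day. On slide 1 the Xist level was -1.26 and -2.51 in leukemias 686 and 713, which had high Ddx3y, against -6.83 and -6.78 on slide 2. Of B lineage markers 10 of 10 were well above background on every array, with summed levels of 1117 to 1561 times the 75th percentile in leukemias, 2278 to 2633 in dHet and 1504 to 1538 in wt cells. T cell markers summed to 10.4 to 32.8 times the 75th percentile in the leukemias, 9.05 to 11.2 in dHet and 3.73 to 3.99 in wt pro-B cells, with 5 to 7, 3 to 4 and 4 to 5 of 8 markers above background. The same sums were 7.04 to 42.1, 17.1 to 18.8 and 1.55 to 2.03 for NK cells (2 to 5, 3 and 3 to 4 of 6 markers), 12.3 to 129.1, 18.6 to 20.9 and 73.8 to 146.8 for myeloid cells (3 to 7, 3 to 4 and 7 of 8), 1.08 to 87.6, 0.105 to 0.169 and 1.3 to 1.79 for red cells (1 to 2, 0 and 2 of 4 on the array), and 1.22 to 2.78, 3.17 to 3.29 and 3.91 to 5.16 for stroma and endothelium (2 to 3, 2 and 4 to 5 of 8). Cd4, Ncr1, Elane, Klf1, Col1a1, Pdgfrb and Cxcl12 were not well above background on any array. The T cell and NK sums were thus higher in the leukemias than in wt cells, but such sums mostly reflect the brightest genes. On replicate 1 of 760 these were Lck (4.82) and Nkg7 (5.31). Of the T cell markers Cd3d lay at -0.94 to 1.34 in the leukemias against -4.17 and -3.74 in wt cells. Cd8b1 lay at -0.26 to 1.68 against -1.2 and -0.97, and all leukemia arrays exceeded wt in Lck and Cd5 too. Cd3e and Cd8a overlapped wt cells, and Cd3g was well above background on 1 array of each leukemia only. Of the NK markers Nkg7 and Klrd1 were higher on all leukemia arrays than in wt cells, while Gzma and Gzmb overlapped. Prf1 did not follow, at -3.84 to -1.72 in the leukemias and -2.57 and -2.42 in wt cells. The NK sum of dHet cells lay within the range of the leukemias. The part of other cells in the results that follow was not tested.

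Promoters are shown first, for the genes called between leukemias and wt cells or, as Sms, between leukemias. The RefSeq table (GRCm38.p6) had 7 of the 9 genes, without Srm. Each sequence is the 250 bases before a start site, read 5' to 3' on the gene's strand. Capitals mark CACGTG, the canonical E-box that Myc and its partner Max bind, and CACGCG, a variant of it, searched on both strands.
Odc1, chr12:17544623-17544872, plus strand: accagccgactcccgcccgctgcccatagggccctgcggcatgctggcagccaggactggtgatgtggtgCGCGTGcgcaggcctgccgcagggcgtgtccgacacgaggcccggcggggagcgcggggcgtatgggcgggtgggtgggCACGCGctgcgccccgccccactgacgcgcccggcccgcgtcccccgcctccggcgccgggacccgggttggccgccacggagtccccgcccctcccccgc
Amd1, chr10:40302189-40302438, minus strand: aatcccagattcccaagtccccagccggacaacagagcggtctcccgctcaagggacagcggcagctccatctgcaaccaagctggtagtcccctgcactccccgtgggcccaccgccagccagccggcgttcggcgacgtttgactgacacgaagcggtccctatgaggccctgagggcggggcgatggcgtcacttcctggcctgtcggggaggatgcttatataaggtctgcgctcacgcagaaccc
Sms, first entry, chrX:157491369-157491618, minus strand: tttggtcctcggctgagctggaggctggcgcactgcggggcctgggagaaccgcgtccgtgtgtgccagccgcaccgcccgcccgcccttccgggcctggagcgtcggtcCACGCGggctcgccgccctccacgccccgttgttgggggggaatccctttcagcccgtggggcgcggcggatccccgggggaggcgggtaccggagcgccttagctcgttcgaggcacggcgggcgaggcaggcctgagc
Sms, second entry, chrX:157492288-157492537, minus strand: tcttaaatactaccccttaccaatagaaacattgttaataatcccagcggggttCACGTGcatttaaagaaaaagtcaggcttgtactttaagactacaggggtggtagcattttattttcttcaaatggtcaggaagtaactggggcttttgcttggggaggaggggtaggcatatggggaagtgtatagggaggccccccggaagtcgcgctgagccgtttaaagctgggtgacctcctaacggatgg
Sat1, chrX:155216450-155216699, minus strand: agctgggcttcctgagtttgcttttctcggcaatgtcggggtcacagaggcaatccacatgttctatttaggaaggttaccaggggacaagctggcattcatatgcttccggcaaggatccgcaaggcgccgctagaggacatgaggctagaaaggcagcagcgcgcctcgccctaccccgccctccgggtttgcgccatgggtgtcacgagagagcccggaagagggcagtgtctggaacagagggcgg
The Odc1 window held 2 CACGCG matches, which begin 180 and 101 bases before the start site, and no CACGTG. Of the Sms windows 1 held CACGCG and the other CACGTG. The Amd1 and Sat1 windows held neither. Over 32851 promoters of this length 7.6% held CACGCG and 6.0% CACGTG. The GC box letters GGGCGG, on either strand, occurred 4 times each in the Odc1 and first Sms windows, 2 times in that of Sat1, 1 time in that of Amd1 and in 32.7% of all promoters. Of the windows not printed, Smox held 6 and Oaz2 3 such matches, and Oaz1 held 1 CACGCG. A match is only these letters, not a site, and the windows bear on no array value.

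Next, 3 probe sequences are given as well, because each of these probes gave another call than the main probe of its gene in at least 1 comparison. Coordinates of probes are on mm9, per the files. The Sat1 and Oaz2 intervals are printed as the files give them and do not span 60 bases of the genome.
Odc1, A_52_P436238, chr12:17554799-17554858: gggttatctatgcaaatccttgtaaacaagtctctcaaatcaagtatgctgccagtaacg
Sat1, A_52_P640282, chrX:151647669-151647699: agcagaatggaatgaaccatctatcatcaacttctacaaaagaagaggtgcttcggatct
Oaz2, A_52_P90289, chr9:65535779-65536685: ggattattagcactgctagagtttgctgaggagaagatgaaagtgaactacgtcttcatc

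Srm, Amd1 and Odc1, which together make spermidine, were higher in all 3 leukemias than in both kinds of pro-B cells. Srm rose 10.25-fold against wt and 26.85-fold against dHet pro-B cells, Amd1 5.48-fold and 3.43-fold, and Odc1 1.69-fold and 3.56-fold. Sat1, the acetyltransferase that starts their removal, was 2.71-fold lower than in wt cells by its main probe. Against wt cells 3 of 9 genes were called higher and 1 lower, where 58.7% of all probes were called, 27.7% higher and 31.0% lower. Against dHet cells 3 of 9 were called higher, where 46.7% of probes were called, 19.3% higher and 27.4% lower. The median change of the 9 genes was 0.05 against wt cells and 0.43 against dHet cells, beside -0.07 and -0.15 over all probes. The shares called are thus near those of the array as a whole. The 2 comparisons share the leukemia arrays.

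**Figure D1:**
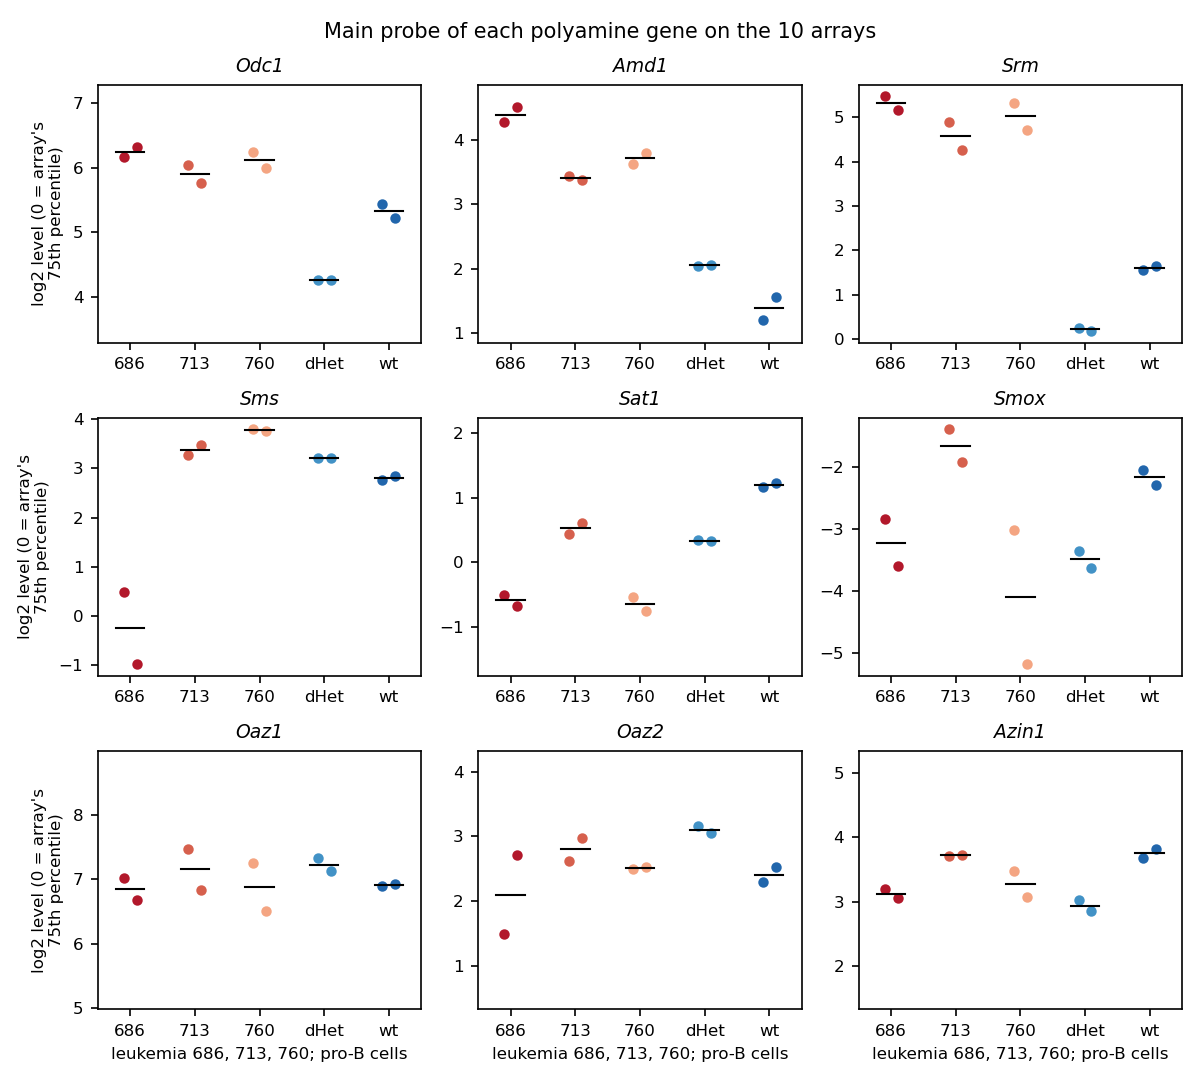
Log2 level (0 is the array's 75th percentile) of the main probe of each of the 9 genes on the 10 arrays; dots are arrays, replicate 1 at left, and bars are means of 2 arrays. Odc1, Amd1 and Srm lie higher on all 6 leukemia arrays than on all 4 pro-B arrays, and Sms is low on both arrays of leukemia 686 alone, at 0.49 and -0.98.

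Srm encodes spermidine synthase and showed the widest gap between leukemias and pro-B cells among the 9 main probes. Its only probe (A_51_P300709, chr4:147968433-147968492) lay at 5.47 and 5.15 in leukemia 686, 4.88 and 4.27 in 713, 5.32 and 4.72 in 760, 0.26 and 0.19 in dHet and 1.57 and 1.65 in wt pro-B cells. The leukemia and pro-B arrays did not overlap, as in 28.2% (wt) and 21.2% (dHet) of all probes. The ranges of the leukemias overlapped along the order 686, 760, 713, but same-numbered arrays share a slide, and on each slide that order held. The change was 3.36 ± 0.23 (SE) against wt (adjusted p = 0.000304, limma) and 4.75 ± 0.23 against dHet cells (adjusted p = 0.000433), in the same direction in 3 of 3 mice. Beside the wt cells the dHet cells were lower by 1.39 ± 0.28 on the log2 scale (adjusted p = 0.0117), so that the cultured cells, not the sorted ones, had the lowest level.

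Amd1 encodes the decarboxylase that makes the aminopropyl donor for both synthases. Its main probe (A_51_P381763, chr10:40007422-40007481) lay at 4.28 and 4.5 in leukemia 686, 3.44 and 3.37 in 713, 3.62 and 3.8 in 760, 2.05 and 2.06 in dHet and 1.21 and 1.56 in wt pro-B cells. No neighbours in the order 686, 760, 713, dHet, wt overlapped. The leukemias exceeded wt cells by 2.46 ± 0.3 (adjusted p = 0.00135) and dHet cells by 1.78 ± 0.3 (adjusted p = 0.00614). Unlike Srm and Odc1, Amd1 was higher in dHet than in wt cells, by 0.68 ± 0.19 (adjusted p = 0.0382), without overlap, as 46.2% of probes were. Its other probe also lists the near-identical Amd2, was well above background on 1 array of each leukemia and none of the pro-B cells, and was not tested. The probe named Amd2 lies at the Amd1 locus on mm9, so signal of these near-copies cannot be told apart. It changed by 1.7 ± 0.3 against wt (adjusted p = 0.0047) and 1.34 ± 0.3 against dHet cells (adjusted p = 0.0148).

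Odc1, the entry enzyme, rose more against dHet than against wt cells. The main probe (A_51_P291347, chr12:17557755-17557813) lay at 6.17 and 6.32 in leukemia 686, 6.04 and 5.76 in 713, 6.24 and 6 in 760, 4.26 on both dHet arrays, and 5.44 and 5.22 in wt pro-B cells. All leukemia arrays were above all pro-B arrays, while the leukemias overlapped their neighbours in the order 686, 760, 713. On each slide 713 was the lowest leukemia. The change was 0.76 ± 0.16 against wt (adjusted p = 0.00818) and 1.83 ± 0.16 against dHet cells (adjusted p = 0.000928). The dHet cells were below the wt cells by 1.07 ± 0.19 on the log2 scale (adjusted p = 0.00685), without overlap, as 36.5% of probes were. The second probe, printed above, lay at 1.15 and 1.47 in 686, 0.48 and 0.95 in 713, 1.11 and 1.04 in 760, -0.38 and -0.42 in dHet and 0.63 and 0.28 in wt cells. It put the change against wt at 0.58 ± 0.22 (adjusted p = 0.0618), with overlapping arrays, and against dHet cells at 1.44 ± 0.22 (adjusted p = 0.00406).

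How far the leukemias stood above wt cells depended on how the arrays were scaled. The median change of all probes was -0.07 with the 75th percentile, 0.49 when arrays were scaled by their median and -0.44 when scaled on probes detected on all arrays. Of the calls against wt cells 47.2% were higher under the first, 69.8% under the second and 29.9% under the third. Against dHet cells array medians moved that share from 41.4% to 56.0%, and between the pro-B groups it was 51.3%, 63.8% with array medians and 37.8% with commonly detected probes. Relative to the median of all probes Odc1 was higher than in wt cells by 0.34 to 0.83 over 5 scalings, Srm by 3.09 to 3.43 and Amd1 by 2.15 to 2.53. The 75th percentile, array medians and commonly detected probes shift each array by a constant, so their relative changes are equal by construction. Only quantile normalization and the authors' value table could differ. Odc1 lost its call against wt with commonly detected probes (0.39, adjusted p = 0.087), after quantile normalization (0.31, adjusted p = 0.182), with normexp (0.77, adjusted p = 0.0529) and in the authors' value table (0.31, adjusted p = 0.161). With the slide as a random block its adjusted p was 0.0751, and without replicate 2 of the wt cells 0.0645. The calls of Srm and Amd1 against both kinds of pro-B cells, and of Odc1 against dHet cells, held in every alternative run.

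**Figure D2:**
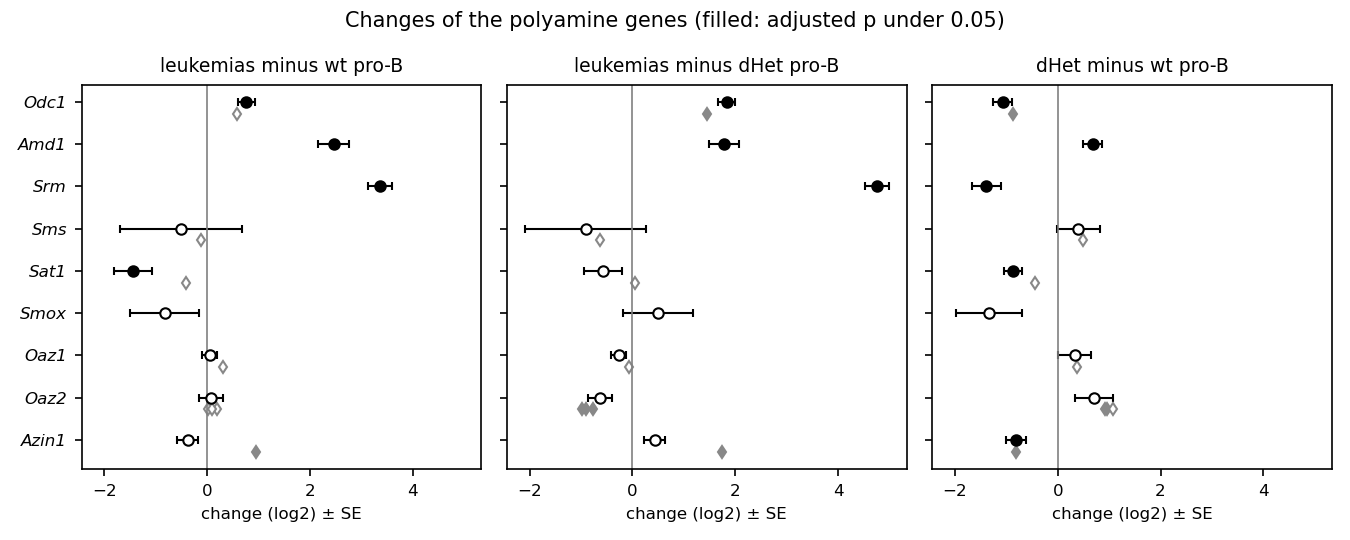
Change on the log2 scale in 3 comparisons for the main probe (circle, with its SE) and the other tested probes (diamond) of each gene; filled symbols have an adjusted p under 0.05. Srm, Amd1 and Odc1 lie right of 0 in both leukemia comparisons, and the 2 probes of Azin1 part ways against wt cells.

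Sms, which turns spermidine into spermine, was not called between the leukemias as a group and pro-B cells but split the leukemias. Its brighter probe (A_51_P457259, chrX:153883706-153883765) lay at 0.49 and -0.98 in leukemia 686, 3.27 and 3.47 in 713, 3.79 and 3.76 in 760, 3.21 on both dHet arrays, and 2.77 and 2.85 in wt pro-B cells. Leukemia 686 was far below every other array, while 6.62% of probes had 686 below the other leukemias without overlap, and the other 4 groups followed the order 760, 713, dHet, wt without overlap. The dimmer probe (A_52_P573377, chrX:153882112-153882171) lay at -3.48 and -4.79 in leukemia 686, not well above background on either array, and between -1.5 and -0.1 on the other 8. Against the mean of the other leukemias the level in 686 fell by 3.82 ± 0.36 on the log2 scale with the first probe (adjusted p = 0.005455), a 14.1-fold difference. The second probe was also called lower in 686 (adjusted p = 0.00438, limma), from fitted values that were not well above background there. Its difference was at least 8.88-fold, a bound that was not itself tested. The bound counts each array of 686 at its dimmest level that is well above background, or at the probe's own level if higher. By change in 686 the brighter probe ranked 15 from the lowest of 22301, and 1.75% of probes were called lower there. These p-values measure the spread between 2 arrays of a mouse, not between mice.

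The low Sms level of 1 mouse set the result for the group. Over 3 mice the change was -0.51 ± 1.18 against wt (adjusted p = 0.732) and -0.91 ± 1.18 against dHet cells (adjusted p = 0.5525). Without mouse 686 the brighter probe was higher than in wt cells by 0.77 ± 0.18 (adjusted p = 0.0202). Against dHet cells the brighter probe was not called, with 0.36 as its highest change when 1 mouse or array was left out. The dimmer probe without 686 was higher by 1.16 ± 0.13 (adjusted p = 0.00267) against wt and 0.66 ± 0.13 (adjusted p = 0.0174) against dHet cells. Sms in 686 also read higher on slide 1 than on slide 2, as Xist did, and the part of slide 1 in it was not tested. With a normexp background correction the fall in 686 was 3.08 and no longer called (adjusted p = 0.139), a setting under which limma called 0 of 22301 probes in that comparison, though 967 had an unadjusted p under 0.05. Of the 4 other tested probes within 1 Mb on mm9, looked up after the Sms values were seen, none was called. Distances are counted from the Sms probes, not from the ends of the gene. The nearest on the same strand, 13.2 kb away and named ENSMUST00000127089, may thus lie within Sms itself. It was below the dimmest level well above background on both arrays of 686 (-4.28 and -7.08, against -2.13 and -4.73), so its change was not measured. Yy2, 120.9 kb away, changed by 0.13 ± 0.37.

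**Figure D3:**
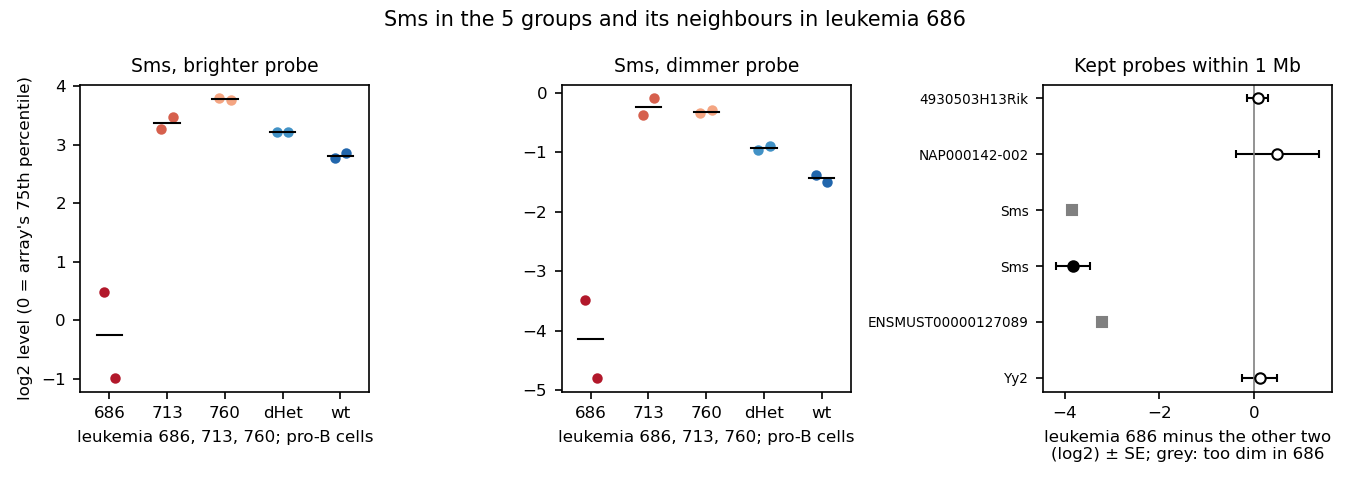
Left and middle: log2 level of both Sms probes on the 10 arrays (dots; bars are means of 2 arrays). Right: change in leukemia 686 against the mean of the other 2 leukemias for all tested probes within 1 Mb, as circles with SE, filled where the adjusted p is under 0.05. Grey squares without error bars mark probes too dim on both arrays of 686 to measure, the second Sms probe among them; the brighter Sms probe lies at -3.82.

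Sat1 acetylates spermidine and spermine, which marks them for export or oxidation. The main probe (A_51_P348494, chrX:151650691-151650750) lay at -0.51 and -0.67 in leukemia 686, 0.44 and 0.61 in 713, -0.54 and -0.75 in 760, 0.34 and 0.33 in dHet, and 1.17 and 1.23 in wt pro-B cells. All other arrays were below wt cells, as the leukemia arrays were in 30.3% of probes. Leukemia 713 stood just above dHet while 686 and 760 overlapped each other below both. The change was -1.44 ± 0.37 against wt (adjusted p = 0.0178), -0.57 ± 0.37 against dHet cells (adjusted p = 0.246) and -0.87 ± 0.17 in dHet against wt cells (adjusted p = 0.0101). Leukemia 713 exceeded the other leukemias by 1.14 ± 0.15 (adjusted p = 0.0035), where 7.10% of probes were called higher. The second probe, printed above, lay at -1.28 and -2.27 in 686, -0.24 and -1.14 in 713, -1.15 and -1.6 in 760, -1.26 and -1.39 in dHet and -0.89 and -0.84 in wt cells, with leukemia arrays on both sides of wt. It was not called in any comparison, with -0.41 ± 0.31 against wt (adjusted p = 0.2975). The call against wt was lost with array medians (-0.87, adjusted p = 0.103), with the mean of both probes (-0.93, adjusted p = 0.0567) and without either wt array (adjusted p = 0.083 and 0.0892). Summed levels of stroma and endothelium markers, and in part of myeloid ones, were also higher in wt cells (given above), and the part of such cells in the result was not tested.

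Smox encodes the oxidase that returns spermine to spermidine. Its tested probe (A_51_P372826, chr2:131350711-131350770) lay at -2.84 and -3.6 in leukemia 686, -1.39 and -1.91 in 713, -3.02 and -5.18 in 760, -3.35 and -3.63 in dHet and -2.04 and -2.28 in wt pro-B cells, and was not well above background on 1 array each of 686 and 760. Leukemia 713 lay above all other arrays, by 2.01 ± 0.56 against the other leukemias (adjusted p = 0.0609). Same-numbered leukemia arrays share a slide, and with the replicate number as a block the adjusted p was 0.0224 (limma). That block also took in the pro-B arrays, which all share another slide, so it was not a pairing of the leukemias alone. No change of Smox was called in the main fit. Some alternative settings called it higher in 713 (down to an adjusted p of 0.00537, limma) and lower in 760 (0.0148). Others called it lower in dHet than in wt cells (0.00289) and in the leukemias than in wt cells (0.0135). Its second probe was not well above background on any array.

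The antizymes bind ornithine decarboxylase. Oaz1, the general antizyme and among the brightest probes, lay between 6.5 and 7.47 on all arrays by its main probe (A_51_P104128). Its change was 0.05 ± 0.15 against wt (adjusted p = 0.791), -0.27 ± 0.15 against dHet (adjusted p = 0.189) and 0.33 ± 0.32 between dHet and wt cells (adjusted p = 0.504). The second probe (A_52_P461292) gave 0.31 ± 0.14, -0.07 ± 0.14 and 0.38 ± 0.22, and none was called. The direction against wt turned under quantile normalization (-0.49, adjusted p = 0.0241) and in the authors' value table (-0.52, adjusted p = 0.00544; second probe -0.28, adjusted p = 0.0197), while with array medians the second probe was called higher (0.87, adjusted p = 0.0195). Antizyme is chiefly set by ribosomal frameshifting, a step that mRNA levels do not show.

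Oaz2, the second antizyme, was lower in the leukemias than in dHet pro-B cells by 3 of its 4 probes. The main probe (A_51_P311945) lay at 3.16 and 3.05 in dHet, 2.29 and 2.52 in wt and between 1.49 and 2.98 in the leukemias, where all arrays were below dHet, as in 28.2% of probes; its change was -0.63 ± 0.23 (adjusted p = 0.0669). The other 3 probes changed by -0.91, -0.76 and -0.98 between leukemias and dHet cells (adjusted p = 0.0137, 0.0106 and 0.00519), calls that all 3 lost with array medians (-0.7, -0.55 and -0.77) and with the slide as a random block. Between dHet and wt cells A_52_P157408 and A_52_P654130 rose by 0.92 ± 0.19 and 0.96 ± 0.21 (adjusted p = 0.0117 and 0.0145), while the main probe changed by 0.7 ± 0.37 and the probe printed above by 1.08 ± 0.46, neither called. No Oaz2 probe was called between leukemias and wt cells.

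Azin1, the antizyme inhibitor, resembles ornithine decarboxylase but has no activity of its own. Its main probe (A_51_P234544, chr15:38420056-38420115) lay at 3.19 and 3.06 in leukemia 686, 3.71 and 3.73 in 713, 3.47 and 3.07 in 760, 3.03 and 2.85 in dHet and 3.68 and 3.82 in wt pro-B cells. Wt cells and leukemia 713 overlapped at the top, and the changes of -0.38 ± 0.21 against wt and 0.43 ± 0.21 against dHet cells were not called (adjusted p = 0.166 and 0.137). A second probe (A_52_P24631, chr15:38418482-38418541), at base 3511 of the same transcript where the main probe is at base 1937, lay at 1.67 and 1.46 in 686, 2.05 and 1.76 in 713, 1.85 and 1.61 in 760, 0.05 and -0.09 in dHet and 0.78 and 0.82 in wt cells. Every leukemia array was above both pro-B groups, by 0.94 ± 0.15 against wt (adjusted p = 0.00311) and 1.75 ± 0.15 against dHet cells (adjusted p = 0.000906). The probes thus differed in the sign of the change against wt cells, and no test of that difference was made. Both put dHet below wt cells, by -0.81 ± 0.19 and -0.82 ± 0.19 (adjusted p = 0.0214 and 0.0188).

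Between the cultured dHet and the sorted wt pro-B cells, 4 of the 9 genes were called lower in dHet cells (Srm, Odc1, Sat1 and Azin1) and 1 higher (Amd1), where 27.2% of probes were called, 13.2% lower and 13.9% higher. The median change was -0.81, against 0.1 over all probes. Each of the 5 calls rests on the spread pooled over 5 groups, and the count ranged from 0 to 6 when 1 array was left out. It was 0 without either dHet array and without wt replicate 1, and 1 without wt replicate 2. It was also 0 with array medians, where the median of all probes was 0.45, and with normexp background. With an unadjusted p under 0.05 these counts were 5, 5 and 4 without either dHet array and wt replicate 1, 2 with array medians and 3 with normexp (limma). Relative to the median of all probes the changes over 5 scalings were -1.62 to -1.31 for Srm, -1.44 to -1.17 for Odc1, -1.07 to -0.9 for Sat1, -1.13 to -0.9 for Azin1 and 0.48 to 0.58 for Amd1. As above, scalings that shift each array by a constant give equal relative changes by construction. Genotype, tissue and culture all differ between these groups and cannot be told apart.

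Among the leukemias, called main probes numbered 2 of 9 in 686 (Amd1 higher, Sms lower), 3 in 713 (Sms and Sat1 higher, Amd1 lower) and 2 in 760 (Sms higher, Sat1 lower), beside 2.96%, 12.2% and 9.65% of all probes (1.21%, 7.10% and 4.31% higher, and 1.75%, 5.13% and 5.34% lower). Without overlap with the other leukemias, 686, 713 and 760 were higher in 5.63%, 14.2% and 10.1% of probes and lower in 6.62%, 11.8% and 9.92%. Amd1 in 686 exceeded the other leukemias by 0.83 ± 0.17 (adjusted p = 0.0495) and in 713 was lower by 0.64 ± 0.17 (adjusted p = 0.0485). Both lost the call whichever of the 10 arrays was left out. The main probe of Sms lost its call in 713 in 8 of these 10 runs and in 760 in 2, and that of Sat1 in 760 in 9. Odc1 and Srm, by contrast, were not called in any of the 3 contrasts, with a spread over mouse means of 0.17 and 0.37 (SD, n = 3) around 6.09 and 4.97, beside 2.21 around 2.3 for Sms. Srm was called lower in 713 with the slide as a random block (-0.59, adjusted p = 0.0154) or scan day as a block (adjusted p = 0.00863), and in the authors' value table both Srm (-0.65, adjusted p = 0.0381) and Odc1 (-0.41, adjusted p = 0.0459) were. With commonly detected probes Srm was too (-0.62, adjusted p = 0.0459), and in 686 it was higher with the scan day block (0.51, adjusted p = 0.0314).

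The genes whose levels followed Srm, Odc1 and Sat1 most closely over the 10 arrays were looked up by the root mean square difference of centred log2 levels, over 12146 genes with a symbol. For Srm the nearest was Myc itself, at 0.23, followed by D030028A08Rik at 0.32 and the amino acid transporter Slc7a5 at 0.35, beside a median of 2.09 over all genes. D030028A08Rik was well above background on 5 arrays only, and its pro-B levels are those of dim spots. Myc lay at 5.06 and 4.82 in leukemia 686, 4.41 and 3.68 in 713, 5.32 and 4.77 in 760, -0.24 and 0.26 in dHet and 1.22 and 1.33 in wt pro-B cells. Like Srm, Myc was high in every leukemia, intermediate in wt and lowest in dHet cells, with changes of 3.4 ± 0.34 against wt (adjusted p = 0.000714) and 4.67 ± 0.34 against dHet cells (adjusted p = 0.000697). For Odc1 the nearest were the small nucleolar RNA host gene Snhg16 and the RNA polymerase III subunit Polr3d, both at 0.13, and the mitochondrial carrier Slc25a22 at 0.15, beside a median of 0.92. For Sat1 they were the syntaxin Stx7 at 0.12, the kinase Lyn at 0.19 and the calcium channel Itpr2 at 0.2, beside 0.96. The nearest of the other 8 genes was Azin1 for Odc1 (0.71) and for Sat1 (0.56), and Amd1 for Srm (1.19). The 10 points of each pattern share their arrays and groups, and no test was made.

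**Figure D4:**
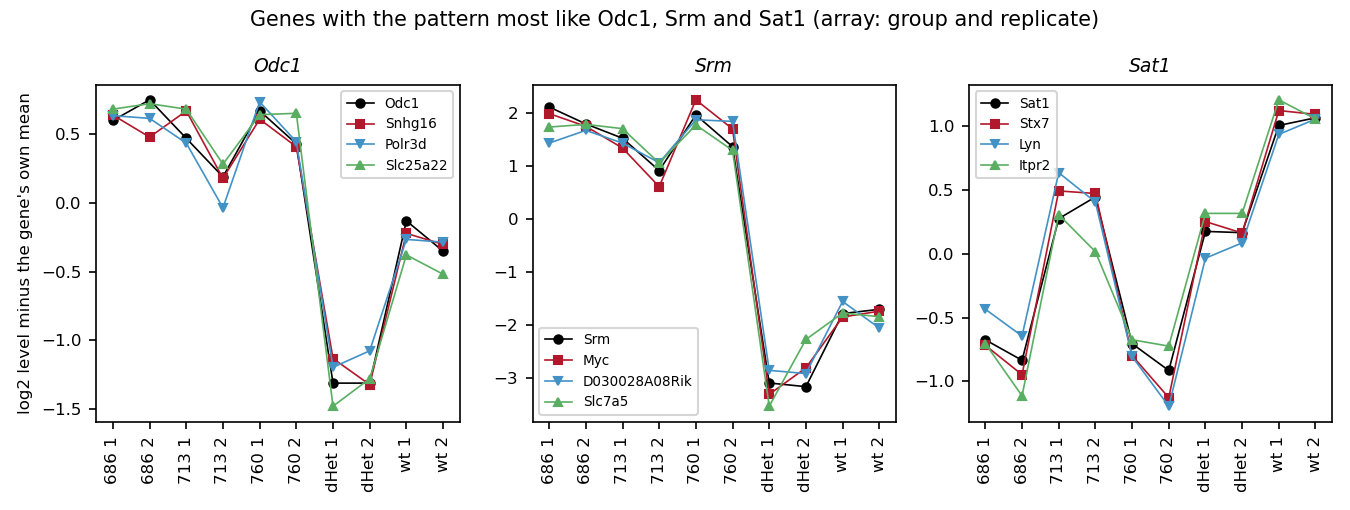
Log2 level minus the gene's own mean on the 10 arrays (group and replicate) for Odc1, Srm and Sat1, each with its 3 nearest genes; lines only join the points of a gene. Myc runs with Srm at a root mean square difference of 0.23.

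Among genes that supply the pathway, counts of calls are read beside the 27.7% of all probes called higher against wt and 19.3% against dHet cells. The lists here and in the next paragraph were chosen with earlier results of these data known, so their counts only describe them. Of the arginine and ornithine list 5 of 12 genes were tested, and all 5 were called higher against wt and 4 against dHet cells, with medians of 2.08 and 2.2. Ass1, which makes the arginine precursor argininosuccinate, changed by 3.84 ± 0.13 against wt (adjusted p = 0.000161) and 2.57 ± 0.13 against dHet cells (adjusted p = 0.000459). The cationic amino acid importer Slc7a1 changed by 2.08 and 3.02, and Aldh18a1, which starts proline and ornithine synthesis from glutamate, by 2.37 and 2.2. The arginine-releasing lyase Asl changed by 1.29 against wt and was not called against dHet cells (0.15). Oat, which interconverts ornithine and glutamate semialdehyde, changed by 0.74 and 1.04. The other 7 genes of the list, among them the arginases, did not pass the filter. Of 11 tested genes for methionine salvage and S-adenosylmethionine supply 8 and 7 were called higher, with medians of 1.11 and 0.59. Mtap, which recovers methionine from the by-product of both synthases, changed by 3.3 ± 0.16 (adjusted p = 0.000223) and 3.06 ± 0.16 (adjusted p = 0.000459). Ahcy, which clears S-adenosylhomocysteine, changed by 2.28 and 0.59, and the salvage enzymes Enoph1 and Mri1 by 1.85 and 1.55 and by 1.78 and 1.73. Got1 changed by 1.4 and the methionine adenosyltransferase Mat2a by 1.02 against dHet cells. A dimmer probe of Ahcyl1 went the other way from its main probe (-1.99 against wt, adjusted p = 0.0027). A second Ahcy probe was called against wt (1.64) but not dHet cells (0.03), and a dimmer Mat2b probe was called lower against wt (-1.53, adjusted p = 0.0195).

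Of the 4 genes of hypusination, the modification of the translation factor eIF5A that uses spermidine, 3 were called higher in both comparisons, beside 27.7% and 19.3% of all probes. Eif5a itself changed by 2.04 ± 0.15 against wt (adjusted p = 0.000336) and 2.15 ± 0.15 against dHet cells (adjusted p = 0.000639). Its modifying enzymes Dhps and Dohh changed by 0.54 and 0.72 against wt, but a second Dohh probe was called lower (-0.92, adjusted p = 0.00484). With commonly detected probes, quantile normalization, normexp or the slide as a random block 1 of the 4 was called higher against wt. Of polyamine genes outside the 9, 3 of 6 were tested and called higher against wt, namely Amd2, the oxidase Paox (1.36 ± 0.36, adjusted p = 0.0207) and Agmat (0.75 ± 0.25, adjusted p = 0.0414); the Amd2 probe, as said, may read Amd1. Of 9 transport genes 4 were tested. Slc3a2, the heavy chain of amino acid transporters, was called higher (1.1 and 1.57) while its second probe was not. The ATPase Atp13a3 was lower against dHet cells (-1.34 ± 0.17, adjusted p = 0.00267, limma). A dimmer Atp13a2 probe was called lower in both comparisons (-1.01 and -1.1), its main probe in neither. Over the alternatives 3 to 5 of the arginine and ornithine list were called higher against wt and 4 against dHet cells, and 6 to 9 and 5 to 7 of the methionine list. The sign of a called change turned only where the probes of a gene were averaged, for 1 gene each of the methionine list in both comparisons and of the hypusination list against wt.

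**Figure D5:**
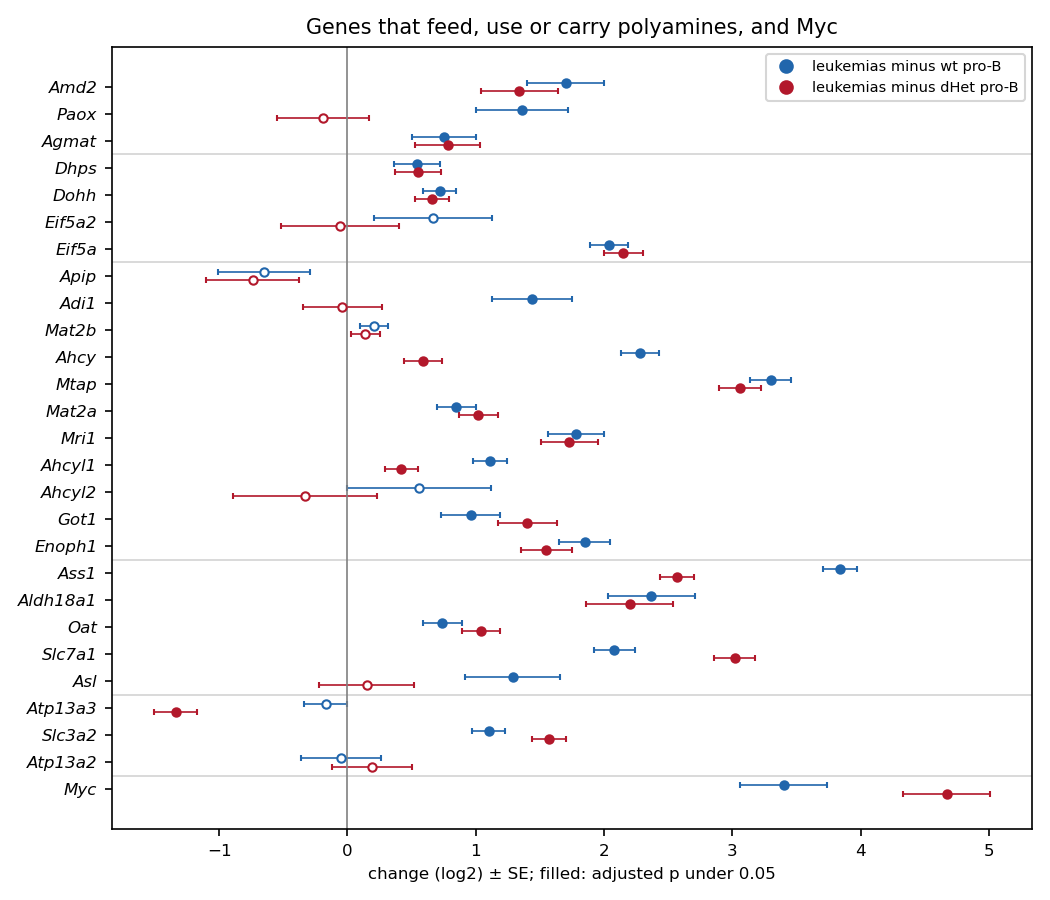
Change (log2, ± SE) against wt and dHet pro-B cells for the main probes of tested genes around the pathway, grouped from the top as other polyamine genes, hypusination, methionine salvage, arginine and ornithine supply, transport, and Myc; filled symbols have an adjusted p under 0.05. Ass1, Mtap, Slc7a1 and Myc lie farthest right; Slc18b1 was not measured above background in dHet cells and is left out.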

How the data were processed

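Mouse total RNA was hybridised to 10 Agilent arrays with 1 colour. The spot intensity used is the processed signal, which the authors' deposited scanner files give after background subtraction by Agilent Feature Extraction (10.5.1.1 per the file headers, 9.1 per the submitters' processing notes). The authors' deposited value table holds log2 values of the same probes; its centring and normalization are not given in the sources used here, and it served as an alternative. From the scanner files, log2 of the processed signal minus each array's 75th percentile was computed for 41174 non-control probes, with spots of a probe averaged. The 22301 probes that every array of some group showed well above background entered limma 3.58.1 (R 4.3.3), with p-values adjusted by Benjamini-Hochberg over all of them at 0.05. Comparisons with pro-B cells used 3 mouse means and the 4 pro-B arrays, leaving 4 degrees of freedom; other contrasts used 10 arrays, leaving 5. The fit was tested on simulated data. Array number limits precision. Same-numbered leukemia arrays deviated together (correlations 0.44 to 0.63 over 3 pairs, which share a slide), but the other 7 pairs of groups did not (-0.04 to 0.08), so the numbers pair leukemias only. Named genes are all probes of the 9 genes, fixed lists around the pathway, the 3 most alike genes of Odc1, Srm and Sat1, and tested neighbours of Sms. The members and lists were chosen with earlier results of these data known.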

Additional observations from a re-analysis of the deposited data

Results flagged for a closer look

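Members of the pathway that differed between leukemias were looked at again, each against the mean of the other 2 leukemias by limma, with the spread between the 2 arrays of a mouse. The brighter Sms probe differed by -3.82 in leukemia 686, 1.61 in 713 and 2.21 in 760; the contrasts share their arrays, and the low level in 686 enters all of them. The second Sms probe was not well above background in 686, so its fitted values of -3.85, 1.99 and 1.87 are no measured sizes, and only a difference of at least 8.88-fold between 686 and the others is known. Sat1 differed by 1.14 in leukemia 713 and by -0.61 in 760 with its main probe. Amd1 differed by 0.83 in leukemia 686 and by -0.64 in 713.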

How the results depend on the processing

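Of main-probe results over the alternatives, 231 of 251 against wt and 237 of 251 against dHet cells kept their side of the threshold. So did 157 of 206 between pro-B groups and 177, 156 and 176 of 197 for leukemias 686, 713 and 760. Direction was compared only where either fit called the change, so an uncalled change could turn sign and still be counted here. The cause of the changes was not tested. Against wt cells Oaz1 turned to -0.49 with quantile normalization and to -0.52 and -0.28 (second probe) in the authors' value table, and Sms turned to 0.77 and 1.16 without mouse 686. With 1 mouse left out Sms ranged from -1.24 to 0.77 (main probe) and -0.79 to 1.16 (second) against wt. Against dHet cells it ranged from -1.65 to 0.36 (main probe) and -1.29 to 0.66 (second).

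Counts are given as all probes called and genes of the 9 called. They were 13091 and 4 against wt, 10420 and 3 against dHet, 6057 and 5 for dHet against wt, and 661 and 2, 2727 and 3, and 2152 and 2 for leukemias 686, 713 and 760. With array medians the genes were 0 for dHet against wt (2 unadjusted) and 1 each in 686 and 760, and the probes 1815 in 713. With commonly detected probes and with quantile normalization the genes were 1 each in 686 and 760. With normexp the probes were 6967 against wt, 4393 against dHet, 537 for dHet against wt, and 0, 351 and 205 for 686, 713 and 760, with 0 genes in the last 4 (3 in each at an unadjusted p under 0.05, and 967 probes in 686). In the authors' table leukemia 686 had 1035 probes and 713 had 5 genes. With no filter dHet against wt had 2925 probes and 0 genes (5 unadjusted), and 686, 713 and 760 had 61, 1157 and 924 probes and 1 gene each. On probes detected on all 10 arrays the probes were 8255 against wt, 6900 against dHet, 407 in 686 and 1146 in 760. With 1 probe per gene they were 8491 and 6671 against wt and dHet, and with the mean of a gene's probes 8493 and 6700, with 5 genes against dHet and 1 in 760; fewer features were tested. With only the groups compared dHet against wt had 12973 probes and 8 genes. With the slide as a random block the probes were 7230, 4422 and 10398 for the pro-B comparisons and 2401, 6080 and 4692 for the leukemias, with 6 genes in 713. With scan day as a block dHet against wt had 11072 probes and the leukemias 2558, 6622 and 5052, with 6 genes against dHet, 4 in 686 and 6 in 713.

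With the replicate block the probes called were 13843, 11308 and 7331 against wt, against dHet and between pro-B groups, and 922, 3483 and 2579 in 686, 713 and 760. For the leukemia contrasts, which the numbers pair, the block changed the call of Smox in 713 (adjusted p = 0.0224, limma) and no other. It was fitted over all arrays, the pro-B arrays included, which the numbers do not pair.

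Leaving out 1 mouse or array gave 8467 to 14323 probes and 2 to 6 genes against wt, 4854 to 11963 and 3 to 5 against dHet, 2581 to 6961 and 0 to 6 between pro-B groups, and 235 to 1286 and 1 to 2, 1331 to 3146 and 1 to 3, and 1103 to 2928 and 0 to 2 for 686, 713 and 760. An alternative on arrays of the second scan day only was chosen after seeing the data. Signal near background limits Smox and the second Sms probe.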
